A study of Mus musculus with 29 samples.

Results

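Myoblast adhesion molecules are the cell surface proteins by which mononucleated muscle precursors recognise and hold on to each other before they fuse into myotubes. A set of 5 such genes was taken by symbol: the cadherins Cdh15 (M-cadherin), Cdh2 (N-cadherin) and Cdh11 (OB-cadherin), and the immunoglobulin family members Ncam1 (neural cell adhesion molecule) and Vcam1 (vascular cell adhesion molecule). They are 5 of the 15954 gene symbols with reads in the table of mRNA 3′ ends, and hold 63 of its 123338 poly(A) site entries. The cells were C2C12, an established mouse myoblast line that divides in rich serum and differentiates into myotubes when serum is lowered.

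Cadherins bind cadherins of the neighbouring cell through their extracellular repeats, in the presence of calcium, and their cytoplasmic tails hold β-catenin and its relatives, which link them to actin. Ncam1 binds itself and FGF receptors without calcium and can carry polysialic acid, and it is made as isoforms that are either transmembrane or tied to the membrane by a lipid anchor. Vcam1 is the ligand of the integrin formed by the subunits Itga4 and Itgb1. All 5 proteins enter the endoplasmic reticulum (ER) through a signal sequence while they are made, so their mRNAs are usually translated by ribosomes on the ER membrane.

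Libraries were made from subcellular fractions. Most were 3′READS+ libraries, in which each read marks the 3′ end of a polyadenylated transcript. For the gradient set, cytosol and membrane fractions of proliferating cells (DMEM with 10% fetal bovine serum) and differentiating cells (DMEM with 2% horse serum) were each split into monosomes, mRNAs with a single ribosome, and polysomes, mRNAs with several. This gave 8 groups of 2 replicates, 16 libraries, with RNA extracted by phenol and chloroform. The 4 differentiating monosome libraries carry the 10% serum medium in one label although their titles and their status label call them differentiating. For the puromycin set, 8 libraries hold the cytosol and membrane of proliferating cells left untreated or exposed to 100 µg/ml puromycin, which releases nascent chains and takes ribosomes off mRNAs, for 0, 30 or 60 min, with 1 library per fraction and exposure. A further pair of 3′ end libraries holds whole cytosol and whole membrane, and 3 RNA-seq libraries hold cytosol, membrane and the insoluble remainder, all from proliferating cells and 1 library each. RNA of these last sets was extracted with TRIzol. The labels do not say whether replicates came from separate cultures, so the p-values speak only to the spread between these libraries, which may be technical.

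Reads at poly(A) sites came to 2964852 to 8237846 per gradient library, 5506600 to 11631401 per puromycin library, and 5881983 and 6150000 in whole cytosol and membrane. Levels are given as CPM, counts scaled to 1000000 reads per library, in which each transcript end counts once whatever its length. As a check of the fractions, 10 ER chaperone genes summed to 3539 to 5852 CPM in proliferating and 1344 to 2788 CPM in differentiating membrane libraries of the gradient set, and 149 to 573 CPM in the 8 cytosol libraries. The membrane sums of the states did not overlap. Of 22 marker genes of other cell types, 3 had enough reads to be tested, namely Tubb3, Runx2 and Krt14, with means of 204, 14.6 and 13.3 CPM in the gradient set. Of the 22, 14 had any read. The other 8, among them Epcam and Kdr, had none under these symbols, and a symbol missing from the table cannot be told from an absent transcript.

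The differentiating libraries held more of the differentiation markers than the proliferating ones, and differed among themselves. Myog, the transcription factor that opens terminal differentiation, was at 69.8 to 506 CPM in differentiating and 0.19 to 3.49 CPM in proliferating gradient libraries. The 17 differentiation marker genes summed to 23953 to 57874 CPM in the 4 replicate 1 libraries and 4553 to 10745 CPM in the 4 replicate 2 libraries, and the 14 proliferation markers to 286 to 588 and 492 to 984 CPM. Replicate 1 thus held the higher marker sum in every group, and the gene levels compared between states, and between fractions of differentiating cells, are given below also without each replicate number where that changes a call or a direction. More cells of a kind and more RNA per cell cannot be told apart in such bulk samples.

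Cdh15, the muscle cadherin, had the highest level of the 5 genes in 26 of 26 3′ end libraries. It also had the simplest 3′ end. All of its 66689 reads lay at 1 poly(A) site, chr8:125391295 on the plus strand (mm9). The second rank fell to Vcam1 in 22 libraries and to Ncam1 in 4. Cdh11 was the rarest, with 740 reads in all 26 libraries together, against 3877 for Ncam1, 7401 for Cdh2 and 18037 for Vcam1, so its values rest on few reads, above all in cytosol.

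In membrane fractions of proliferating gradient libraries Cdh15 stood at 493 and 718 CPM in monosomes and 639 and 725 CPM in polysomes (replicates 1 and 2). Cytosol held 199 and 141 CPM in monosomes and 58.7 and 24.8 CPM in polysomes, so every membrane library lay above every cytosol library. Cdh2, a cadherin shared with neurons and heart, was at 46.4 and 136 CPM in membrane monosomes and 69.3 and 138 CPM in membrane polysomes. In cytosol Cdh2 was at 10.2 and 24.7 CPM in monosomes and 3.79 and 6.08 CPM in polysomes. Cdh11, a cadherin best known from bone and mesenchyme, stood at 2.05 and 3.18 CPM in membrane monosomes and 3.16 and 5.99 CPM in membrane polysomes, and cytosol gave 0.521 and 0 CPM in monosomes and 0.344 and 0 CPM in polysomes, from 4 reads in all. A count of 0 allows up to 0.663 and 0.493 CPM in these libraries.

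The immunoglobulin family members followed the same split. Ncam1 was at 26.1 and 34.0 CPM in membrane monosomes and 28.2 and 43.4 CPM in membrane polysomes of proliferating cells, against 1.97 to 2.86 CPM in the 4 cytosol libraries. Vcam1 was at 169 and 189 CPM in membrane monosomes and 150 and 186 CPM in membrane polysomes, against 18.2 to 28.7 CPM in cytosol. In none of the 5 genes did the fractions overlap, as was so with membrane above cytosol in 21.7% of tested genes.

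**Figure D1:**
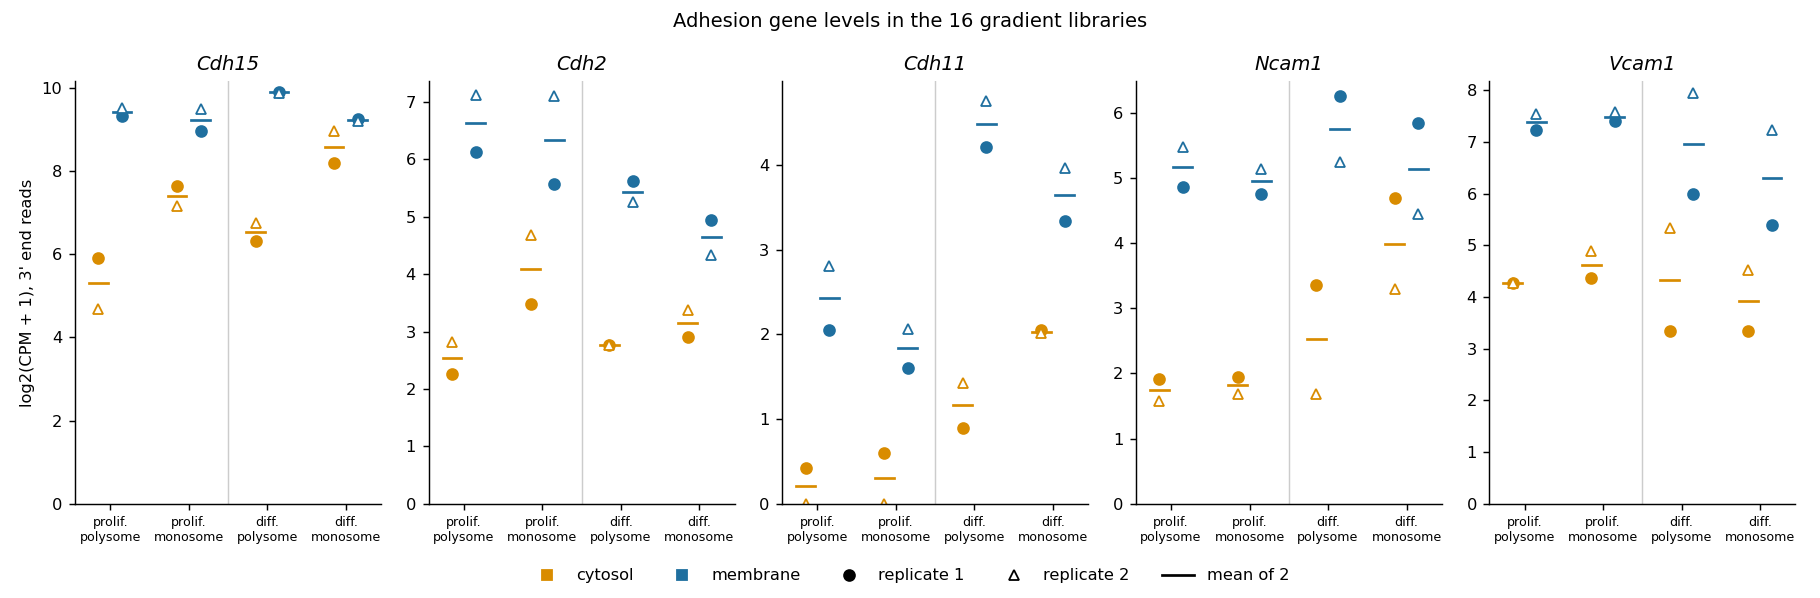
Levels of the 5 adhesion genes in the 16 gradient libraries, as log2(CPM + 1), by state and gradient part, with 1 point per library, coloured by fraction and shaped by replicate, and a bar at the mean of 2. In proliferating cells membrane points lie above cytosol points of the same gradient part for every gene, in differentiating cells all but those of Ncam1 in monosomes do, and in differentiating cells replicate 1 is the higher for Ncam1 and the lower for Vcam1.

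All 5 genes were higher in membrane than in cytosol of proliferating cells, where 34.8% of 11176 tested genes were called in either direction and 23.2% as higher. A gene is called where its p in the quasi-likelihood test of edgeR, adjusted by Benjamini and Hochberg's method, is under 0.05. On the log2 scale the difference was 2.74 for Cdh15 (SE 0.33, adjusted p = 2.8e-05), 3.24 for Cdh2 (SE 0.45, adjusted p = 0.000108) and 3.76 for Cdh11 (SE 0.69, adjusted p = 0.000879). It was 3.55 for Ncam1 (SE 0.56, adjusted p = 0.00031) and 2.85 for Vcam1 (SE 0.55, adjusted p = 0.00132). The median of the 5 was 3.24, beside 0.17 over all genes. All 5 calls held in each of the 18 fits that left out libraries. The Cdh11 estimate depends on cytosol libraries at 0 and ran from 3.19 to 5.57 over these fits.

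In differentiating cells each gene was again higher in membrane, with a lower estimate of the difference than in proliferating cells. Cdh15 was at 605 and 583 CPM in membrane monosomes, 953 and 938 CPM in membrane polysomes, 290 and 497 CPM in cytosol monosomes and 78.9 and 107 CPM in cytosol polysomes. Its lowest membrane value was thus not far above its highest cytosol value. Cdh2 was at 29.9 and 19.1 CPM in membrane monosomes, 48.0 and 37.4 CPM in membrane polysomes, and 5.78 to 9.44 CPM in cytosol. Cdh11 was at 9.09 and 14.6 CPM in membrane monosomes, 17.5 and 26.0 CPM in membrane polysomes, and 0.857 to 3.13 CPM in cytosol. Neither cadherin overlapped between the fractions.

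Ncam1 was at 56.2 and 20.7 CPM in membrane monosomes, 75.1 and 37.0 CPM in membrane polysomes, 24.8 and 8.77 CPM in cytosol monosomes and 9.26 and 2.21 CPM in cytosol polysomes of differentiating cells. Vcam1 was at 40.9 and 149 CPM in membrane monosomes, 62.4 and 246 CPM in membrane polysomes, 9.14 and 21.9 CPM in cytosol monosomes and 9.09 and 39.3 CPM in cytosol polysomes. Replicate 1 was the higher of the pair for Ncam1 and the lower for Vcam1 in every group. For Ncam1 this left a cytosol library of replicate 1 above a membrane library of replicate 2, and the fractions overlapped. In the other 4 genes they did not, as in 14.1% of tested genes with membrane above cytosol.

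All 5 genes were again called higher in membrane by edgeR, against 19.7% of genes called in either direction and 14.2% as higher. The log2 difference was 1.68 for Cdh15 (SE 0.31, adjusted p = 0.00191), 1.95 for Cdh2 (SE 0.44, adjusted p = 0.00742), 2.72 for Cdh11 (SE 0.50, adjusted p = 0.00182), 1.91 for Ncam1 (SE 0.50, adjusted p = 0.0175) and 2.38 for Vcam1 (SE 0.54, adjusted p = 0.00792). The members' median was 1.95, beside 0.07 over all genes. The Ncam1 call was lost without the second cytosol monosome library (1.65, adjusted p = 0.0642), the second cytosol polysome library (1.54, adjusted p = 0.0512), the first membrane monosome library (1.52, adjusted p = 0.0688) or the first membrane polysome library (1.56, adjusted p = 0.0616) of differentiating cells. Without all differentiating replicate 1 libraries Cdh15 (1.43), Cdh2 (1.61) and Cdh11 (2.84) lost their calls. Without all replicate 2 libraries Cdh2 (2.28) and Cdh11 (2.59) lost theirs.

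Whether the membrane to cytosol difference itself changed with differentiation was tested as an interaction. Its log2 estimate was below 0 for all 5 genes, at -1.06 for Cdh15, -1.29 for Cdh2, -1.05 for Cdh11, -1.64 for Ncam1 and -0.48 for Vcam1, with a median over all genes of -0.08. The ER chaperones had a median of -1.21 and the fusion receptors and fusogens one of -0.85. The part of this shift in the values of the 5 genes was not tested. Without differentiating replicate 1 the 5 estimates were -1.63 to -0.40, and without replicate 2 they were -1.79 to -0.72. The edgeR test called 0 of 11176 genes (0%). The unadjusted p was under 0.05 in 669 genes (5.99%), and 14 genes (0.125%) were called by DESeq2, which gave no adjusted p for Cdh2, Cdh11 and Ncam1. With the replicate number as a block within each state, edgeR called 4.6% of genes, 3.87% as lower, among them Cdh2 (-1.23, SE 0.30, adjusted p = 0.015) and Ncam1 (-1.53, SE 0.35, adjusted p = 0.0087). Cdh15 had -1.06 with adjusted p = 0.0598 in that fit, and 8 of 10 ER chaperones were called lower. The Vcam1 estimate turned to 0.13 without the second cytosol polysome library of differentiating cells. The Cdh11 estimate depends on proliferating cytosol libraries at 0 and ran from -2.85 to -0.44 over the fits that left out libraries.

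**Figure D2:**
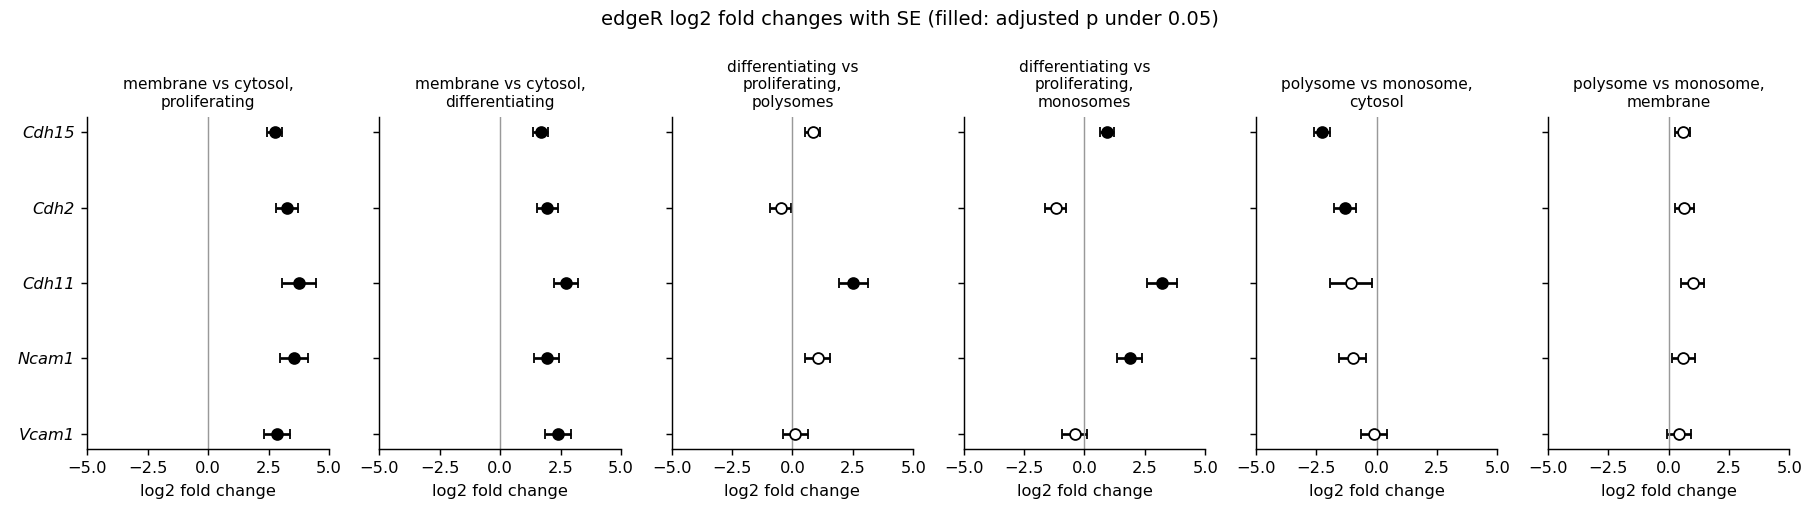
Log2 differences of the 5 genes between fractions, states and gradient parts, from edgeR's fit over all 16 libraries without a block, with bars of 1 SE and filled points for adjusted p under 0.05. The tests of a change in these differences are not drawn. All membrane to cytosol differences lie above 0, and the cytosol polysome to monosome difference is lowest for Cdh15 at -2.26.

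Cdh11 was the member with the clearest difference between states. In membrane it was at 2.05 to 5.99 CPM in the 4 proliferating and 9.09 to 26.0 CPM in the 4 differentiating libraries, and in cytosol at 0 to 0.521 and 0.857 to 3.13 CPM. The states did not overlap in either fraction, as in 5.98% of tested genes in membrane and 3.88% in cytosol with differentiating above proliferating, and the other 4 members overlapped in both fractions. In polysomes Cdh11 rose with differentiation by 2.52 on the log2 scale (SE 0.61, adjusted p = 0.0122, edgeR), where 17.5% of genes were called and 8.65% rose. In monosomes it rose by 3.21 (SE 0.61, adjusted p = 0.00311), where 20.2% were called and 9.1% rose. Cytosol and membrane libraries of 1 replicate number are paired, and these fits count them as separate. Their p-values between states are thus too small, here and for all genes below. The polysome call was lost without the second cytosol polysome library of differentiating cells (2.31) or of proliferating cells (2.14). It was also lost without all differentiating replicate 2 libraries (2.21). The monosome call was kept in each of these.

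Cdh15 overlapped between the states, with 493 to 725 CPM in proliferating and 583 to 953 CPM in differentiating membrane, and 24.8 to 199 and 78.9 to 497 CPM in cytosol. Its log2 difference was 0.85 in polysomes (SE 0.31, adjusted p = 0.074, edgeR) and 0.93 in monosomes (SE 0.31, adjusted p = 0.047). With the replicate block the polysome difference was called too (0.86, adjusted p = 0.00361), as 42% of genes were and 19.8% as higher, and so it was by DESeq2 (0.92, adjusted p = 0.0191; 21.3% of genes called). In comparisons between states, however, the block takes the spread between replicates out of the error. Its p-values for these comparisons are therefore too small, here and for the members below. Without differentiating replicate 1 (1.13) and without replicate 2 (0.67) the monosome call was lost, as in 11 of 18 fits that left out libraries in all. The libraries whose loss alone ended it were both of each differentiating cytosol polysome, differentiating membrane monosome and proliferating cytosol monosome group, the second of differentiating cytosol monosomes (0.69, adjusted p = 0.159), the first of differentiating membrane polysomes and the first of proliferating membrane monosomes, with log2 differences between 0.67 and 1.20 over all fits. The polysome difference was called without the first proliferating cytosol polysome library (1.22, adjusted p = 0.0238) or the second proliferating membrane monosome library (0.93, adjusted p = 0.0487).

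Cdh2 was at 46.4 to 138 CPM in proliferating and 19.1 to 48.0 CPM in differentiating membrane, so that its states overlapped narrowly. In monosomes the log2 difference of Cdh2 was -1.20 (SE 0.43, adjusted p = 0.0667, edgeR) and in polysomes -0.49 (SE 0.43, adjusted p = 0.479). The monosome difference was called with the replicate block (-1.01, adjusted p = 0.000173; 44.7% of genes called, 24.8% as lower) and without the first proliferating cytosol monosome (-1.44, adjusted p = 0.0444) or membrane monosome library (-1.41, adjusted p = 0.025).

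Ncam1 rose with differentiation in monosomes, by 1.87 on the log2 scale (SE 0.53, adjusted p = 0.0251, edgeR), while its polysome difference of 1.04 (SE 0.52, adjusted p = 0.19) was not called. The replicate block called the polysome difference at 0.88 (adjusted p = 0.00307). Both rested on differentiating replicate 1. Without the differentiating replicate 1 libraries the log2 difference of Ncam1 was -0.09 in polysomes and 1.02 in monosomes, where the call was lost. Without replicate 2 the difference was 1.66 in polysomes and 2.39 in monosomes. Single libraries whose loss ended the monosome call were the first of differentiating cytosol monosomes (1.41, adjusted p = 0.118) and of differentiating membrane monosomes (1.47, adjusted p = 0.0946), and any one of the 4 proliferating monosome libraries (1.76 to 2.08, adjusted p = 0.0507 to 0.107).

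Vcam1 was not called between states, with log2 differences of 0.12 in polysomes (SE 0.51, adjusted p = 0.906, edgeR) and -0.41 in monosomes (SE 0.52, adjusted p = 0.619). Its direction depended on which differentiating replicate was read. Without replicate 1 the log2 difference of Vcam1 was 0.76 in polysomes and 0.20 in monosomes, and without replicate 2 it was -1.07 and -1.46. With the replicate block Vcam1 was -0.14 in polysomes and, called, -0.62 in monosomes (adjusted p = 0.00404).

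The replicates of differentiating cells can be set side by side for each gene. The ratio of replicate 1 to replicate 2 over the 4 groups was 2.03 to 4.19 for Ncam1 and 0.23 to 0.42 for Vcam1. It was 0.58 to 1.04 for Cdh15, 0.69 to 1.57 for Cdh2 and 0.50 to 1.03 for Cdh11. The differentiation genes Myog and Tmem8c, which encodes the fusogen myomaker, had ratios of 3.17 to 7.25 and 2.21 to 4.34. Ncam1 thus differed between replicates in the direction of the differentiation markers in all 4 groups, and Vcam1 in the other direction. What part the unequal marker levels have in these values was not tested.

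**Figure D3:**
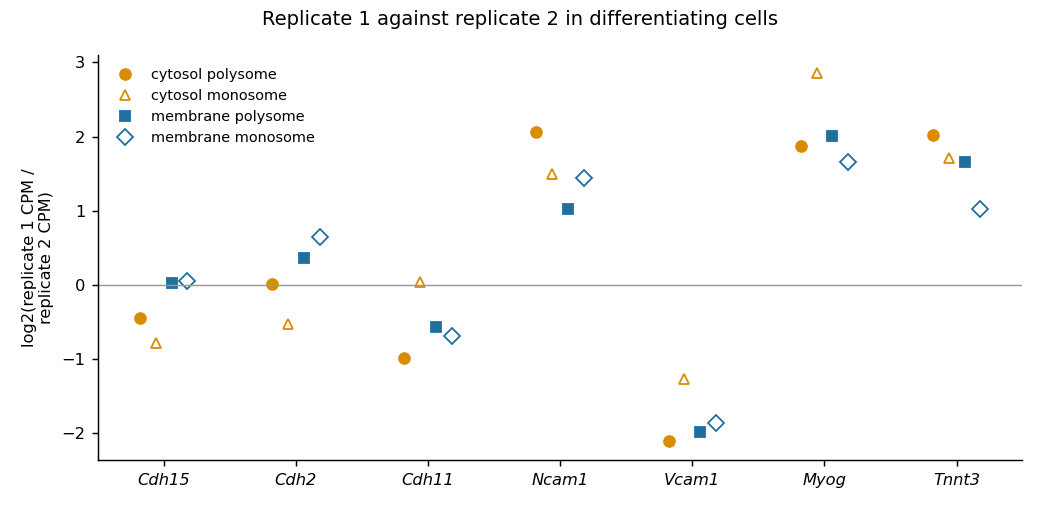
Log2 ratio of the CPM of replicate 1 to replicate 2 in differentiating libraries, with 1 point for each of the 4 groups, for the 5 adhesion genes and the differentiation markers Myog and Tnnt3. Ncam1 points lie above the line of equal levels (ratios of 2.03 to 4.19) and Vcam1 points below it (0.23 to 0.42).

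Ribosome load was read from polysomes against monosomes within a fraction, averaged over both states. In cytosol Cdh15 was lower in polysomes by 2.26 on the log2 scale (-2.26, SE 0.32, adjusted p = 0.000118, edgeR), where 41.4% of genes were called and 20.1% were lower. Cdh2 was called lower as well (-1.32, SE 0.45, adjusted p = 0.0318). Cdh11 had -1.06 (SE 0.85, adjusted p = 0.347), Ncam1 -0.98 (SE 0.56, adjusted p = 0.183) and Vcam1 -0.10 (SE 0.53, adjusted p = 0.906), and Ncam1 was called with the replicate block (adjusted p = 0.00505; 58.4% of genes called). The Cdh2 call was lost without 1 of 5 libraries: the second cytosol monosome library of either state (differentiating -1.15, adjusted p = 0.102; proliferating -0.94, adjusted p = 0.152), either differentiating cytosol polysome library (-1.38, adjusted p = 0.0631; -1.24, adjusted p = 0.0901) and the first proliferating cytosol polysome library (-1.16, adjusted p = 0.106). It was also lost without either differentiating replicate number (-1.52 and -1.09). Ncam1 was called without the first differentiating cytosol polysome library (-1.75, adjusted p = 0.0283). The Cdh11 estimate turned to 0.75 without the proliferating cytosol monosome library that holds both of that group's reads, while differentiating cytosol held 21 reads in monosomes and 15 in polysomes.

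In membrane no member was called between polysomes and monosomes by edgeR, where 13.1% of genes were. The log2 differences were all above 0, at 0.58 for Cdh15 (adjusted p = 0.235), 0.66 for Cdh2 (adjusted p = 0.323), 0.99 for Cdh11 (adjusted p = 0.18), 0.60 for Ncam1 (adjusted p = 0.451) and 0.43 for Vcam1 (adjusted p = 0.63). With the replicate block 40.3% of genes were called, 28.5% as higher in polysomes, and all 5 members were among the latter, with adjusted p of 0.0398, 0.00152, 0.0101, 0.00954 and 0.019 in the same order. Scaling by DESeq2's size factors moved the median of all genes in this comparison from 0.22 to 0.06 and the share of calls that were higher from 66.3% to 47.6%, and kept the sign of every member.

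The polysome to monosome difference was larger in membrane than in cytosol for Cdh15, by 2.84 on the log2 scale (SE 0.44, adjusted p = 0.00064, edgeR), and for Cdh2, by 1.98 (SE 0.61, adjusted p = 0.0448), where 14.7% of genes were called and 10.5% as higher, and 9 of 10 ER chaperones (median 2.65). This contrast was chosen after the data had been seen. The Cdh2 call was lost in 12 of the 16 fits without a single library, and without either differentiating replicate number, with 1.47 to 2.53 over these 18 fits. It was kept only without the second differentiating membrane polysome library, the first proliferating cytosol monosome library, the second proliferating membrane monosome library or the first proliferating membrane polysome library. The Cdh15 call was kept in all 18. With the replicate block, 35.6% of genes were called, among them Cdh15 (2.83), Cdh2 (2.01), Ncam1 (1.61, adjusted p = 0.000471) and Vcam1 (0.60, adjusted p = 0.0492), and not Cdh11 (2.06, adjusted p = 0.0953).

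After puromycin all 5 mRNAs stood lower in membrane relative to cytosol. In the order untreated, 0, 30 and 60 min, Cdh15 in membrane was at 607, 502, 371 and 369 CPM and in cytosol at 35.2, 35.6, 232 and 249 CPM. Cdh2 was at 87.7, 63.6, 45.3 and 49.9 CPM in membrane and 5.99, 4.69, 33.9 and 29.3 CPM in cytosol. Cdh11 was at 3.78, 4.56, 3.28 and 2.94 CPM in membrane and 0, 0, 1.79 and 3.18 CPM in cytosol, the last 2 from 18 and 23 reads, while the counts of 0 allow up to 0.545 and 0.414 CPM. Cytosol was low in both libraries without exposure and high in both with it for each cadherin.

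Ncam1 was at 37.5, 37.1, 25.1 and 20.1 CPM in membrane and 1.09, 3.72, 15.4 and 17.2 CPM in cytosol. Vcam1 was at 253, 166, 137 and 144 CPM in membrane and 13.1, 10.5, 132 and 120 CPM in cytosol. These genes too were higher in both exposed cytosol libraries than in both others, as were 31.8% of 9919 tested genes. Membrane over cytosol, Vcam1 went from 19.3 untreated (95% interval 15.3 to 24.8) and 15.9 at 0 min to 1.04 at 30 min (0.95 to 1.12) and 1.20 at 60 min (1.10 to 1.31). Cdh15 went from 17.2 (14.9 to 20.0) and 14.1 to 1.60 and 1.48 (1.40 to 1.57), and Cdh2 from 14.6 (10.4 to 21.4) and 13.6 to 1.33 and 1.70 (1.44 to 2.01). Ncam1 went from 34.4 (15.7 to 94.3) and 9.98 (6.72 to 15.4) to 1.63 and 1.17 (0.93 to 1.49). For Cdh11, untreated membrane held 44 reads and cytosol 0, so the ratio has only a lower 95% limit, of 5.41. After exposure the Cdh11 ratio was 1.84 (0.96 to 3.57) and 0.92 (0.51 to 1.70). These intervals are exact and cover counting error only.

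**Figure D4:**
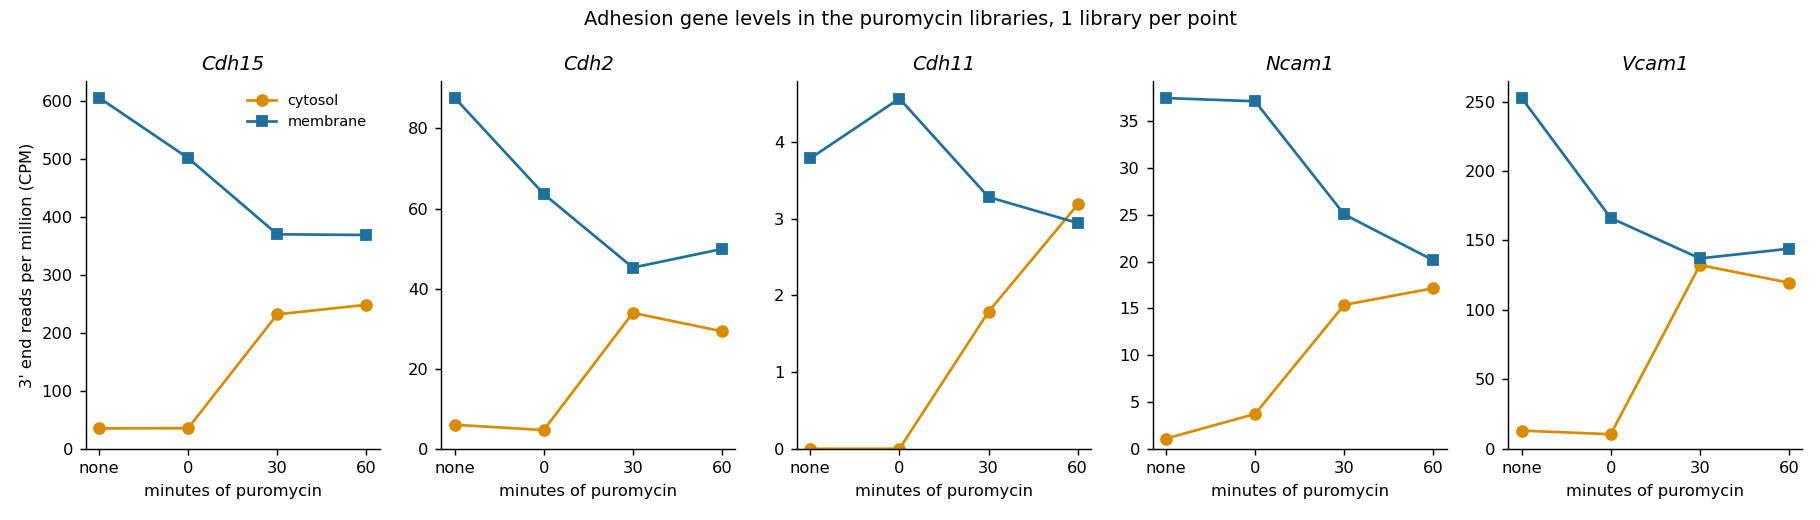
Levels of the 5 genes in cytosol and membrane of proliferating cells, untreated and after 0, 30 and 60 min of puromycin, as CPM on a linear axis with 1 library per point. Cytosol levels of Cdh15 go from 35.6 at 0 min to 232 at 30 min while membrane levels go from 502 to 371.

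The line fitted over exposure time fell by 1.70 to 2.75 log2 units of membrane over cytosol per 30 min in the 5 genes, and edgeR called 0 of 9919 genes (0%), with 2535 (25.6%) at an unadjusted p under 0.05. The members' adjusted p was 0.11 to 0.123 in that fit. DESeq2 called 12% of genes in the same model, all 5 members among them, with adjusted p of 0.000136 for Cdh15 to 0.0107 for Cdh11. When both exposed pairs were set against both pairs without exposure, edgeR called 39.4% of genes, 20.5% as lower, and all 5 members: -3.42 for Cdh15 (SE 0.18, adjusted p = 8.46e-10), -3.31 for Cdh2 (SE 0.25, adjusted p = 4.62e-08), -3.51 for Ncam1 (SE 0.40, adjusted p = 4.65e-06) and -4.05 for Vcam1 (SE 0.20, adjusted p = 5.15e-10). Cdh11 was called too (adjusted p = 0.000571), but its fitted value depends on libraries at 0. The median over all genes was 0.22. In this test the untreated and 0 min pairs, and the 30 and 60 min pairs, stand in for replicates.

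Averaged over the 4 pairs, edgeR called no member between membrane and cytosol (25.5% of genes called; members' log2 differences 1.76 to 2.11, adjusted p 0.144 to 0.293), whereas DESeq2 called 41.8% of genes and all members but Cdh11 (adjusted p = 0.0567). In the pairs without exposure alone all 5 were called, as 58.7% of genes were, with 3.85 for Cdh15, 3.71 for Cdh2, 3.80 for Ncam1 and 4.02 for Vcam1. In the exposed pairs alone, where 55.1% were called, Cdh15 (0.39, adjusted p = 0.000113) and Cdh2 (0.36, adjusted p = 0.021) were still called higher in membrane. Cdh11 (0.14, adjusted p = 0.814), Ncam1 (0.25, adjusted p = 0.227) and Vcam1 (-0.07, adjusted p = 0.61) were not called there. In the fits of exposed pairs alone and of pairs without exposure alone, different exposure labels stand in for replicates. Their p-values thus do not measure a spread between replicates of 1 exposure. Whether the cadherins Cdh15 and Cdh2 differ from the other 3 genes in this residual was not tested.

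The whole fractions, 1 library each and untreated, gave 855 CPM in membrane and 51.9 in cytosol for Cdh15, 152 and 11.6 for Cdh2, 6.50 and 0.17 for Cdh11, 49.3 and 2.55 for Ncam1, and 191 and 21.6 for Vcam1. The membrane to cytosol ratio was 16.5 for Cdh15, 13.2 for Cdh2, 19.3 for Ncam1 and 8.83 for Vcam1, with no replicate check. For Cdh11 it was 38.3 from 40 reads against 1, with an interval of 6.48 to 1548.

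RNA-seq libraries of proliferating cells, counted by the authors in the constitutive and alternative parts of 3′ UTRs, gave the insoluble fraction as well. Cdh15 was at 2.04 CPM in cytosol, 52.6 in membrane and 28.2 in the insoluble remainder, Cdh2 at 27.6, 339 and 172, Cdh11 at 8.61, 97.2 and 53.5, and Vcam1 at 9.51, 115 and 53.9. Ncam1 was at 14.9, 221 and 285. Insoluble over membrane was 0.47 to 0.55 for Cdh15, Cdh2, Cdh11 and Vcam1, and 1.29 for Ncam1 (95% interval 1.19 to 1.39). Ncam1 was thus the only member with a higher CPM in the insoluble library than in the membrane library, with no replicate to set this against. Of the Ncam1 reads 84.0% (exact 95% interval 82.0 to 85.8) lay in the alternative part in membrane, 90.7% (89.0 to 92.3) in the insoluble remainder and 93.9% (85.2 to 98.3) in cytosol. In the order cytosol, membrane and insoluble these shares were 33.3%, 58.2% and 53.2% for Vcam1 and 15.8%, 12.1% and 12.7% for Cdh11. RNA-seq levels are not compared between genes, because the lengths of the counted parts are not used here.

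The members also differed in their 3′ ends. Cdh2 had 2 poly(A) sites with at least 5% of its reads, chr18:16748208 and, 822 nt downstream, chr18:16747386 (both mm9, minus strand). Cdh11 had chr8:105157383 and, 487 nt downstream, chr8:105156896 (minus strand). Vcam1 had chr3:115826350 and, 13294 nt downstream, chr3:115813056 (minus strand), the latter with 93.4% of its reads. Ncam1 had 34 listed sites, 33 with reads and 4 with at least 5%, which lie on the minus strand in the order chr9:49327446, chr9:49325378, chr9:49323234 and chr9:49311750. No gene annotation of mm9 was used here, so the sites are not assigned to exons, introns or UTRs.

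The shares of Ncam1 reads at its sites were compared between the states. At chr9:49323234 its share of reads in membrane was 22.8%, 29.1%, 26.3% and 35.8% in the proliferating and 44.7%, 51.3%, 50.4% and 61.9% in the differentiating gradient libraries (monosome then polysome replicates 1 and 2). At the last site, chr9:49311750, the shares were 13.4%, 26.9%, 31.9% and 18.1% in proliferating and 6.38%, 3.85%, 5.25% and 5.95% in differentiating libraries. At the first, chr9:49327446, they were 7.87%, 5.49%, 7.33% and 7.48% against 1.28%, 0%, 1.63% and 0%. The 0 of 78 and 0 of 252 reads allow shares of up to 3.85% and 1.19%. At these 3 of the 10 sites of the members the states did not overlap in membrane, which was so at 5.88% of 17322 sites. Those sites hold at least 5% of the reads of a tested gene. Only genes with more than 1 such site and with reads in all 8 membrane gradient libraries were counted.

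The mean share of Ncam1 reads at chr9:49323234 went from 28.5% ± 5.5 (SD, n = 4) in proliferating to 52.1% ± 7.2 (SD, n = 4) in differentiating membrane libraries, that at chr9:49311750 from 22.6% ± 8.4 to 5.36% ± 1.11, and that at chr9:49327446 from 7.04% ± 1.06 to 0.73% ± 0.85. Two-sided exact permutation tests over the 8 libraries gave p = 0.0286 for each, the smallest value 4 against 4 libraries allow, and 0.0952 after Benjamini-Hochberg adjustment over the 10 sites tested. Libraries of 1 replicate number are paired, which makes these p-values too small. None therefore passed the threshold. At chr9:49325378 the means were 14.2% and 24.5% (exact permutation p = 0.143, n = 4 and 4). In cytosol, where Ncam1 had 49 reads in proliferating and 188 in differentiating gradient libraries, the shares at chr9:49325378 were 4.08% and 35.6% (exact 95% interval 28.8 to 42.9), with 0% to 10.0% in the single libraries of the former and 30.8% to 38.9% in those of the latter. Of 15495 sites chosen by the same rule in cytosol 4.3% did not overlap between the states there. The Ncam1 sites that separated the states in membrane all overlapped in cytosol. Proliferating against differentiating, they held 12.5% to 50.0% and 15.4% to 43.2% at chr9:49323234. At chr9:49311750 the shares were 0% to 37.5% and 0% to 9.47%, and at chr9:49327446 0% to 8.33% and 0% to 7.69%.

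**Figure D5:**
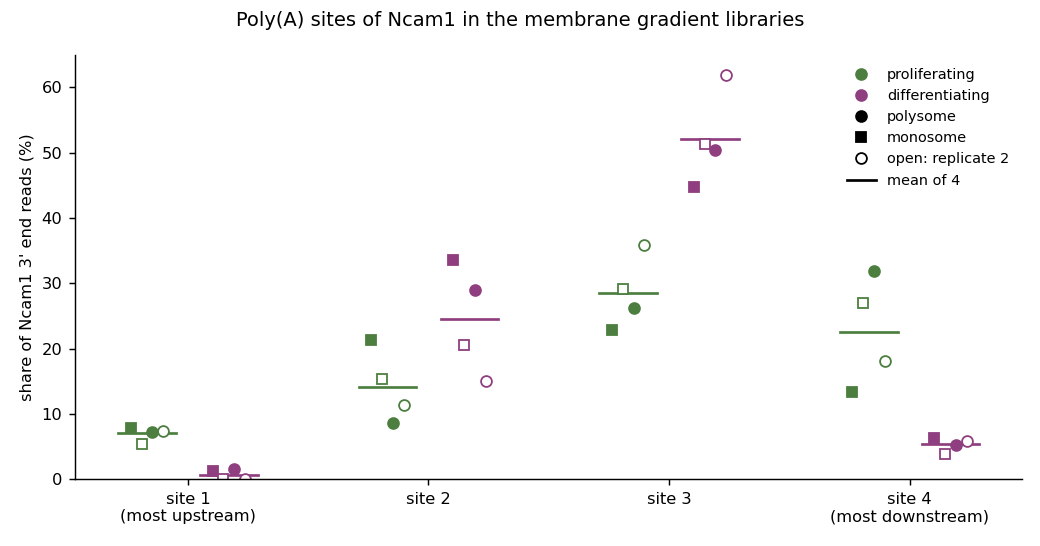
Share of Ncam1 3′ end reads at its 4 main poly(A) sites in the 8 membrane gradient libraries, in percent, with points for libraries and lines for the mean of 4. The third site in transcript order holds 22.8% to 35.8% in proliferating and 44.7% to 61.9% in differentiating libraries, and the last holds 13.4% to 31.9% and 3.85% to 6.38%.

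Tested as pairs of proximal and distal sites within 10 kb over all libraries of the gradient set, no member was called by edgeR between states, where 1.54% of 4553 pairs were, or between fractions, where 1.05% were. Ncam1, tested as chr9:49325378 against chr9:49323234, had a log2 difference between states of -1.24 (SE 0.56, adjusted p = 0.328), from reads of both fractions, and Cdh2 of 0.23 (SE 0.34, adjusted p = 0.847). The pair of Vcam1 is too far apart for that limit. When pairs up to 50 kb apart were admitted, a choice made after the data had been seen, the distal end of Vcam1 was lower relative to the proximal in differentiating cells by 1.29 on the log2 scale (-1.29, SE 0.29, adjusted p = 0.0226, edgeR), where 2.13% of 4930 pairs were called. The replicate block left the estimate at -1.29 (adjusted p = 0.000139; 11.2% of pairs called). Between states the p-values of both fits are too small. The estimate uses both fractions, and in proliferating cytosol the proximal end held only 21 of 422 reads. Leaving out libraries was not tried for pairs up to 50 kb apart. In shares, the distal end of Vcam1 held 93.3% to 96.0% of membrane reads in proliferating and 89.8% to 94.2% in differentiating libraries, which overlapped (two-sided exact permutation p = 0.0857, n = 4 and 4, 0.171 adjusted over 10 sites). In cytosol it held 90.7% to 99.1% in proliferating and 81.5% to 89.2% in differentiating libraries. These did not overlap, as was so at 4.3% of 15495 sites, and the former rest on the same 21 proximal reads.

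In the puromycin set the distal end of Vcam1 was higher in membrane than in cytosol relative to the proximal end (0.86, SE 0.24, adjusted p = 0.0166, edgeR), where 9.7% of 5143 pairs were called. It held 93.8% of 6568 membrane reads and 89.2% of 2345 cytosol reads there. The gradient set gave 0.45 for the same pair (SE 0.32, adjusted p = 0.624; 2.05% of pairs called). With pairs within 10 kb, 9.73% of 4719 pairs were called in the puromycin set and neither Cdh2 (0.57, adjusted p = 0.388) nor Cdh11 (0.83, adjusted p = 0.759) was among them. For Cdh11 the share at chr8:105157383 was 83.0% of 88 reads in proliferating and 80.7% of 399 reads in differentiating membrane of the gradient set, and 37.4% of 131 reads in membrane of the puromycin set, while the whole membrane library had 80.0% of 40 reads. For Cdh2 the distal site held 76.5% of reads in proliferating gradient membrane, 90.4% in puromycin membrane and 83.3% in the whole membrane library. The whole fractions share TRIzol extraction with the puromycin set. The difference between the sets was not tested.

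The genes around these adhesion molecules give the setting. Of 13 other cadherins 2 had enough reads, Cdh13 (T-cadherin, which is lipid anchored) and Cdh10, and both were higher in membrane of proliferating cells (3.12 and 2.46, edgeR). Cdh13 also rose with differentiation, by 2.26 in polysomes (adjusted p = 0.00379) and 1.95 in monosomes (adjusted p = 0.00616). Unlike Cdh11, it was not level between differentiating replicates. The summed CPM of the other cadherins, nearly all from Cdh13, was 168 and 93.5 in membrane polysomes and 128 and 54.1 in membrane monosomes (replicates 1 and 2). Cdh11 was lower in replicate 1 of both groups. Cdh13 was also lower in cytosol polysomes than monosomes (-2.32, adjusted p = 0.0012). The catenins and linkers are proteins without signal sequence that bind cadherin tails directly or through other proteins. Of 8 tested, 4 were higher in membrane of proliferating cells, beside 23.2% of all genes, with a list median of 0.95. Among them were Vcl, which encodes vinculin (2.48), and Ctnnb1, which encodes β-catenin (1.36). With differentiation none of the 8 was called, beside 17.5% of all genes in polysomes and 20.2% in monosomes. In cytosol 3 of the 8 were higher in polysomes, beside 21.3% of all genes, with Ctnnb1 at 1.63 and Jup at 1.76, and Vcl was lower (-1.38).

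Of 21 tested fusion receptors and fusogens, 17 were higher in membrane of proliferating and 16 of differentiating cells, with list medians of 2.65 and 1.77. Over all genes 23.2% and 14.2% were higher. In proliferating cells the tetraspanin Cd81 had 4.31 and its partner Ptgfrn 3.42. With differentiation 4 of the 21 rose and 3 fell in polysomes, beside 8.65% and 8.83% of all genes. Tmem8c (myomaker) rose by 7.82 on the log2 scale and Gm7325 (myomixer) by 8.06, while Myof, a membrane repair and fusion protein, fell by 0.79. Of 9 tested partners of Vcam1 and Ncam1, 7 were higher in membrane of proliferating cells, with Itgb1, the β chain of the Vcam1 receptor, at 4.02 and Fgfr1 at 2.85. In differentiating cells 4 of 9 were higher, beside the same 23.2% and 14.2% of all genes in the 2 states. Itga4, the α chain that pairs with Itgb1, rose with differentiation in polysomes (4.73, SE 0.89, adjusted p = 0.00408, edgeR) where both proliferating cytosol polysome libraries were at 0 and the membrane ones at 0.24 and 0.17 CPM, so the fitted value depends on libraries at 0, and the kinase Fyn, which acts downstream of Ncam1, rose by 1.03 (adjusted p = 0.0183).

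After puromycin, when exposed and not exposed pairs were compared, 20.5% of all genes were called as lower in membrane relative to cytosol. Of 18 tested fusion receptors and fusogens 15 fell, among them Cd81 (-4.95), Itgb1 (-4.41) and, least, Myof (-0.72). Of the 8 partners 6 fell, among them Ptpra (-3.66), and Cdh13 fell by 3.77. Of 7 catenins and linkers Vcl fell by 4.09 and Mllt4 rose by 0.93, and Ctnnb1 had -0.25 (adjusted p = 0.353). The medians were -3.51 for the 5 members, -2.77 for the fusion list, -1.40 for the partners and -0.25 for the catenins, beside 0.22 over all genes.

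Across the 16 gradient libraries, which share fraction, state and replicate, the genes whose log2(CPM + 1) was most like each member's were found among 6673 genes with a mean of at least 10 CPM over these libraries, clones and predicted genes passed over. For Cdh15 they were Sulf2 (r = 0.986), Fkbp7 (0.980) and Cd302 (0.980), and for Cdh2 Slc12a2 (0.980), Tmem43 (0.977) and Rer1 (0.971). Cdh11 was most like Ccdc80 (0.952), Col6a2 (0.936) and Prelp (0.929), and Ncam1 most like Col1a1 (0.945), Sparc (0.944) and Fbn1 (0.939). Vcam1 was most like Tlr4 (0.987), Mfsd11 (0.972) and Thbd (0.972). Among the members themselves r was highest between Cdh15 and Ncam1 (0.858) and lowest between Cdh2 and Cdh11 (0.495).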

How the data were processed

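The series holds 29 samples, 26 3′ end libraries and 3 RNA-seq libraries. The authors deposited raw read counts per poly(A) site for each 3′ end library and counts of RNA-seq reads in the constitutive and alternative parts of 3′ UTRs, per the file headers. The submitters' processing notes name mm9, cutadapt, Bowtie2 and STAR 2.5.2 without their roles. Strand use in RNA-seq counting and the handling of duplicate reads are not given in the sources used here. Of 125369 poly(A) entries, 651 positions listed under several symbols (0.56% of reads) were left out, and 24 symbols had been turned into dates. RNA-seq totals were 4283571 to 6521107 reads.

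Counts were summed per symbol. The gradient set (11176 genes) and the puromycin set (9919 genes) passed edgeR's filterByExpr, were scaled by TMM and tested by the robust quasi-likelihood test of edgeR 4.0.16 (R 4.3.3), adjusted by Benjamini and Hochberg's method over all genes, with a threshold of 0.05. Each set was 1 fit. The puromycin fit had a term per pair of fractions. Site pairs needed at least 10 reads on average and at least 5% in the rarer site, at most 10 kb apart. Exact permutation tests and intervals (95%) were computed with scipy 1.17.1, and figures drawn with matplotlib 3.10.9. The tests were tested on simulated data.

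Replicate numbers were checked for pairing by the correlation of replicate differences between groups, which was 0.602 to 0.827 within a state (12 of 12 over 0.1) and 0.169 to 0.383 between states (16 of 16), so a block for the replicate number within each state was tried. In comparisons between states this block takes the spread between replicates out of the error, so its p-values there are too small. Without the block, paired cytosol and membrane libraries count as separate, which also makes p-values between states too small. Other alternatives were DESeq2 1.42.0 and its size factors, no low-count filter, stricter site pairs and leaving out each library. The members and gene lists were chosen with earlier results of these data known. The 5 members are named by the rule. Of a list, genes with the highest mean CPM or lowest p are named, of sites those with at least 5% of a gene's reads, and 3 genes of like pattern.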

Additional observations from a re-analysis of the deposited data

Results flagged for a closer look

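The membrane to cytosol difference changed with cell state, by a test of the change itself, in 2 of the 5 genes once the replicate number was a block, where 4.6% of all genes were called and 3.87% as lower. The change was -1.23 on the log2 scale for Cdh2 and -1.53 for Ncam1, so both differences were smaller in differentiating cells. Without the block neither was called by edgeR (Cdh2 -1.29, Ncam1 -1.64). Of 10 ER chaperones, 8 were called lower with the block.

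The polysome to monosome difference changed between the fractions by the same kind of test. It was higher in membrane than in cytosol by 2.84 for Cdh15 and 1.98 for Cdh2 without the block, where 14.7% of all genes were called. The Cdh2 call was lost in 12 of 16 fits without a single library. Of 10 ER chaperones 9 were called higher, with a median of 2.65. With the block, where 35.6% of genes were called, it was higher by 2.83 for Cdh15, 2.01 for Cdh2, 1.61 for Ncam1 and 0.60 for Vcam1.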

How the results depend on the processing

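The 5 calls of proliferating membrane against cytosol held under every alternative run. With the replicate block the members called went from 0 to 2 in the change with differentiation, 1 to 3 between states in polysomes, 3 to 5 in monosomes, 0 to 5 in membrane polysomes and 2 to 4 in the membrane minus cytosol contrast, and Vcam1 in polysomes turned to -0.14. The block also raised the genes called from 3887 to 6273 and 2200 to 4850 (membrane, proliferating and differentiating), 0 to 514 (their difference; DESeq2 14), 1954 to 4696 and 2253 to 4992 (states, polysomes and monosomes), 1461 to 4503 (membrane polysomes) and 1641 to 3983 (membrane minus cytosol), and site pairs from 48 to 369 and 70 to 461. P-values between states are too small with and without the block, for genes and site pairs alike. DESeq2 size factors, no filter and the DESeq2 test each called 2 members (Cdh15 and Cdh11) between states in polysomes. They moved no member's sign, while the size factors moved the all-gene median from 0.17 to -0.004 and the higher share of calls from 66.8% to 55.1% in proliferating membrane, and from 72.1% to 62.4% in differentiating membrane.

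In the puromycin set DESeq2 called 4 members, all but Cdh11 (4148 genes against 2534), pairs not exposed 5 (5819 genes) and exposed pairs 2 (5633 genes), where Vcam1 turned to -0.069. Per 30 min, DESeq2 and exposed against not exposed called 5 each (1192 and 3911 genes against 0). Pairs up to 50 kb called 1 member between states, also with the block, and 1 in the puromycin set, with 101 against 48 site pairs called between fractions. A rarer-site minimum of 20% left 28 of 70 and 291 of 459 pairs.

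Leaving out libraries moved the members called over 2 to 5 (differentiating membrane), 0 to 2 and 1 to 3 (states, polysomes and monosomes), 1 to 2 (cytosol polysomes) and 1 to 2 (membrane minus cytosol). It turned the sign of Vcam1 in the change with differentiation (-1.14 to 0.13), between states (polysomes -1.07 to 0.76, monosomes -1.46 to 0.20), and in polysomes of cytosol (-0.70 to 0.30), of membrane (-0.21 to 1.10) and their difference (-0.10 to 1.19). It also turned Ncam1 between states in polysomes (-0.093 to 1.66), Cdh11 in cytosol polysomes (-2.57 to 0.75), the fraction difference of the Cdh2 (-0.52 to 0.066) and Ncam1 site pairs (-0.62 to 0.53), the state difference of the Cdh11 pair (-1.15 to 1.46) and, in percentage points, its site shares (-2.80 to 4.0 and -2.89 to 7.11). The cause was not tested. The membrane minus cytosol contrast, site shares, pairs up to 50 kb, exposed pairs and whole replicate numbers were chosen after seeing the data. Depth limits Cdh11, with 740 reads in all.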
